A study of Mus musculus with 21 samples.

Results

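White vastus lateralis, the pale outer part of a thigh muscle, was profiled by RNA sequencing in 10 mouse libraries, and the libraries differed widely in RNA of slow-twitch muscle fibres. A slow score was computed for each library as the mean of log2(CPM + 1) over 6 genes of the slow contractile apparatus (Myh7, Myl2, Myl3, Tnnt1, Tnni1 and Tnnc1), where CPM is the count of a gene scaled to the library total. The libraries were chosen by these measured values: the 4 with the highest score were set against the 4 with the lowest, and the 2 between them were left in the middle, so 8 of the 10 white vastus libraries, of 21 libraries in the series, enter the comparison. The question is which other genes go with slow-fibre RNA in this muscle.

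The white vastus came from BATI4KO mice (5 libraries) and floxed littermates (5 libraries), with whole tissue taken from both and no treatment named. The name BATI4KO stands, as far as is known of this study, for mice whose brown adipocytes lack Irf4, a transcription factor, while the floxed mice carry the loxP-flanked gene without that loss. The labels do not give the Cre driver, age or sex, and do not say if the libraries come from separate animals, so every p-value measures only the spread between these libraries. Irf4 was at 2.50 to 4.95 CPM in the floxed and 2.205 to 2.97 CPM in the BATI4KO libraries, and since the muscle is not the tissue taken to be deleted, these levels check no label. Libraries are named by the end of their titles, in which FX marks floxed and KO marks BATI4KO mice.

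Skeletal muscle mixes fibres that differ in speed and fuel. Slow (type I) fibres use the myosin heavy chain Myh7 and slow forms of light chains, troponins and tropomyosin, are rich in mitochondria and myoglobin, and burn fatty acids. Fast fibres use Myh2 (type IIa, oxidative), Myh1 (IIx) or Myh4 (IIb, glycolytic), and white vastus is made up mostly of the last kind. In whole-tissue RNA, fewer fibres of a type and less RNA per fibre cannot be told apart.

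The slow score ran over a wide range in both genotypes. It was 7.47 in KO_5492, 7.18 in KO_5495, 5.39 in FX_5514 and 3.78 in FX_5497, the high libraries. It was 2.41 in FX_5413 and 2.28 in KO_5493, the middle ones, and 1.42 in FX_5415, 1.20 in KO_5496, 1.19 in KO_5494 and 0.479 in FX_5503, the low ones. Each of the high and low sets therefore held 2 libraries of each genotype. The lowest high library lay 1.37 above the middle ones and the highest low library 0.863 below them. The mean score was 3.87 ± 3.19 in BATI4KO and 2.69 ± 1.94 in floxed libraries (SD, n = 5 each), a difference of 1.17 with a p of 0.492 in an exact two-sided permutation test over all relabellings. The spread within each genotype was larger than this difference.

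Across the libraries, total counts ran from 30479508 to 40328627. Titin (Ttn) took 8.72% to 18.8% of the counts and the noncoding model DQ539915 2.03% to 6.49%. A set of 3 floxed libraries (FX_5514, FX_5497 and FX_5503) stood apart by 2 short noncoding RNAs, with Rmrp at 106.5 to 133 CPM against 11.8 to 22.4 CPM in the other 7 and Rpph1 at 273 to 296 against 13.2 to 25.9 CPM. A pair of these libraries is in the high set and the third is in the low set. The tissue label was checked by its defining marker: Myh4, the chain of fast glycolytic fibres, was at 30314 to 89989 CPM.

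The 6 genes of the score chose the libraries, so their values are a description with no test. Myh7 was at 586, 1007, 182 and 32.2 CPM in the high libraries (in the order of the score), at 10.3 and 19.9 in the middle ones and at 2.24, 6.68, 2.69 and 0.675 in the low ones. These CPM and those that follow are scaled by TMM, which corrects library totals for a few very abundant genes. Myl3, the slow essential light chain, was at 286, 265, 119 and 54.3 CPM, then 40.4 and 7.24, then 3.69, 1.82, 3.34 and 0.522. Tnni1, the inhibitory subunit of slow troponin, was at 99.2, 87.1, 20.3 and 3.87 CPM, then 1.94 and 1.70, then 0.573, 0.651, 0.336 and 0.245. In all 3 genes the sets kept their order, with a step between the second and the third library. The means of the high and low sets differed on the log2 scale by 6.68 for Myh7, 6.27 for Myl3, 5.93 for Tnnc1 (the calcium-binding subunit), 5.91 for Tnni1, 5.79 for Myl2 (the slow regulatory light chain) and 5.37 for Tnnt1 (the tropomyosin-binding subunit). Among the score genes, the Myl3 of FX_5413 was nearest to that of FX_5497, while the other 5 genes were at 1.21 to 10.3 CPM.

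**Figure D1:**
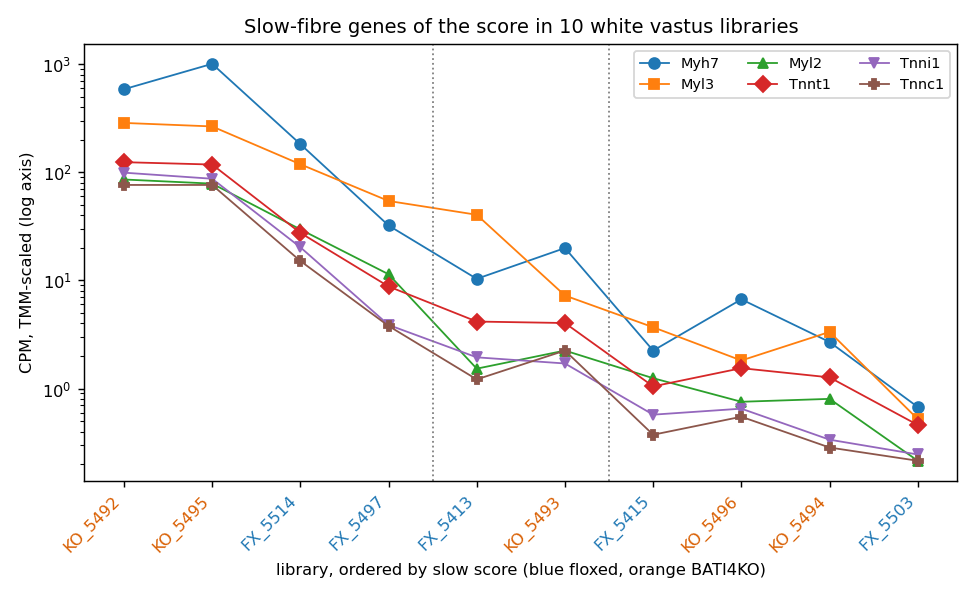
CPM of the 6 score genes (lines and symbols) on a log axis in each of the 10 white vastus libraries, ordered by slow score, with dotted lines between the high, middle and low sets. In each of the 6 genes the high libraries lie above the middle ones and the low libraries below them, with Myh7 from 1007 CPM in KO_5495 to 0.675 CPM in FX_5503.

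The stretches just before the start sites of 4 of these muscle genes are shown because their genes make up the slow and fast programs compared here. They are the 250 bases before the start in RefSeq, build GRCm38.p6, 5′ to 3′ on the gene's strand: Myl3 chr9:110763428-110763677 (plus strand), Tnnc1 chr14:31208062-31208311 (plus), Tnnt1 chr7:4515976-4516225 (minus) and Myh4 chr11:67237562-67237811 (plus). Capitals mark matches, on either strand, to the M-CAT motif CATTCC bound by TEAD factors, the E-box CAGCTG bound by MyoD-type factors and the TATA motif TATAAA.
Myl3: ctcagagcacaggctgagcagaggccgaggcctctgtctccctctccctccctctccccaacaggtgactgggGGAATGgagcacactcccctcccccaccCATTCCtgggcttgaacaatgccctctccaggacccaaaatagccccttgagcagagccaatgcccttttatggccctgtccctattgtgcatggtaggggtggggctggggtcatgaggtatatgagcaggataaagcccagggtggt
Tnnc1: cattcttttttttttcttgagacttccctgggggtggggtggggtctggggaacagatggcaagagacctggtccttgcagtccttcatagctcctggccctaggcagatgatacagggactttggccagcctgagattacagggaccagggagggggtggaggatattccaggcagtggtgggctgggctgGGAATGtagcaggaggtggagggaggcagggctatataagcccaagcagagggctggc
Tnnt1: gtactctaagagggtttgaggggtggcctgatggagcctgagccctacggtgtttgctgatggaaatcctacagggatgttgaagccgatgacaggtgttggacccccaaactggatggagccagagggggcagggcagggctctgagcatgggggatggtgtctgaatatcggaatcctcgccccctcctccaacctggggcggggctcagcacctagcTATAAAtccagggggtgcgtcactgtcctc
Myh4: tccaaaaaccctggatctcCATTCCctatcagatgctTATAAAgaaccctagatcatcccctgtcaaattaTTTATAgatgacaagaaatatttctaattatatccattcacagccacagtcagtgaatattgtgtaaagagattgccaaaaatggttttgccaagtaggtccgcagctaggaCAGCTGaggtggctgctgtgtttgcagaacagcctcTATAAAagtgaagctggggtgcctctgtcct
The Myl3 stretch held 2 M-CAT matches, at 177 and 149 bases before the start, and the Tnnc1 stretch held 1, at 58 bases. The Tnnt1 stretch held a TATA match 30 bases before the start. The fast gene Myh4 held 1 M-CAT match, 1 E-box and 3 TATA matches. Among these 4 stretches, M-CAT and TATA matches were thus in slow and fast genes, and the E-box in Myh4 alone. With 1 fast gene shown, slow and fast genes cannot be compared. Over 300-base windows that reach 50 bases past the start, an M-CAT match was in 3 of the 9 windows of the 6 score genes and in 14.7% of all 32851 windows of the table (12.3% of those of the genes tested), and an E-box in 4 of the 9 and in 16.3% (15.7%). The 4 windows with an E-box belong to only 2 genes, Tnni1 and Myl2. Counted by gene, an M-CAT match was in 3 of the 6 score genes and 16.6% of all genes of the table. An E-box was in 2 of the 6 and in 18.3%. A match describes letters and shows no binding.

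The myosin heavy chains show how small the slow share was even in the high libraries. Per length of the gene model, Myh7 made up 1.13% and 1.18% of the 4 adult chains (Myh7, Myh2, Myh1 and Myh4) in KO_5492 and KO_5495. Its share was 0.209% in FX_5514, 0.0362% in FX_5497 and 0.00068% in FX_5503. The model of Myh7 has 8199 bases and that of Myh4 6297, so these shares depend on the models used. Counting error was small beside these steps: of the 4 genes' counts, Myh7 took 1.45% (95% Wilson interval 1.43% to 1.47%) in KO_5492 and 0.00088% (0.00058% to 0.0013%) in FX_5503. The intervals cover counting error only, since the reads carry no molecular identifiers. Myh4 was the main chain in every library, at 72.6% to 97.4% per length. Myh2 was at 7.28%, 6.45%, 4.85% and 2.87% in the high set, from KO_5495 down to FX_5497, and at 0.544% to 1.92% in the low set.

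**Figure D2:**
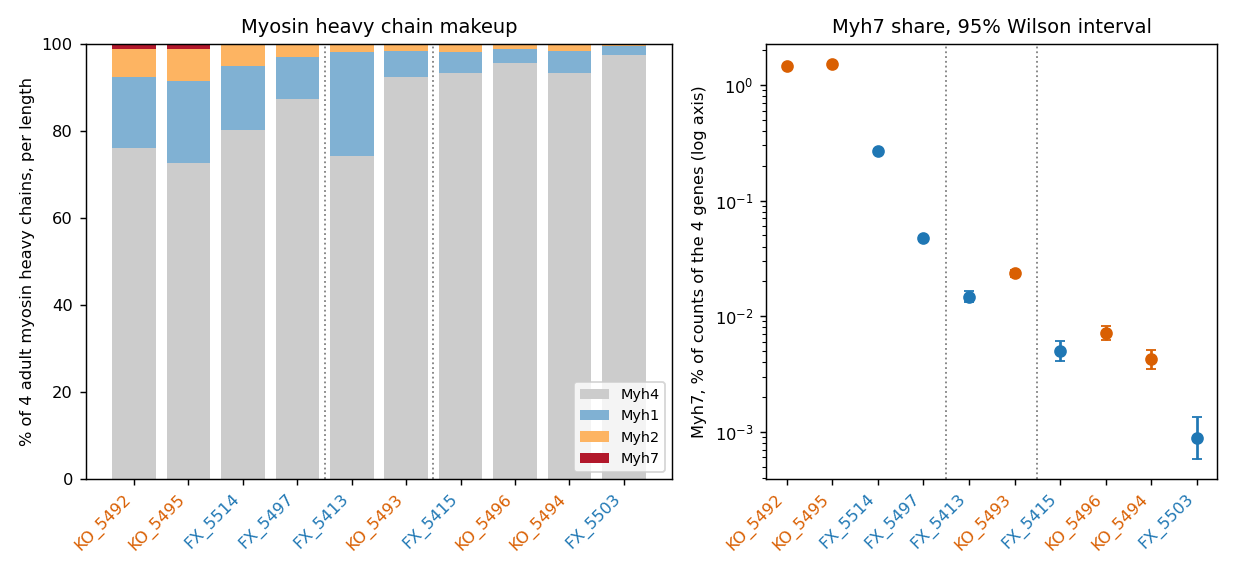
Left, share of 4 adult myosin heavy chains per length of the gene model (stacked bars, %) in each library. Right, Myh7 as a share of the counts of the 4 genes (points, log axis, bars are 95% Wilson intervals). Both are in the order of the slow score. Myh4 leads in all 10 libraries, and FX_5413 has the largest Myh1 share, 23.8%.

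Both oxidative and intermediate fast chains were higher in the high set. Myh2 was at 2962, 5509, 3739 and 2253 CPM in the high set and 987, 1194, 1136 and 480.1 in the low set, a difference of 1.94 on the log2 scale. Myh1 was at 6547, 12432, 9813 and 6688 CPM in the high set and 2110, 3139, 3264 and 1604 in the low set, a difference of 1.82. Neither overlapped between the sets. Myh4 was at 30314, 47688, 53747 and 59567 CPM in the high set and 41675, 89989, 59405 and 74612 in the low set, and the sets overlapped. The log2 difference of Myh4 was -0.46 over both genotypes, 0.02 within floxed and -0.94 within BATI4KO libraries. The myosins share sequence, which the counting could split: 19.7% of the 50-base stretches of Myh2 also occur in Myh1, and 10.5% of those of Myh1 in Myh4.

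Over the 12147 other genes with a mean of at least 1 CPM, a gene was counted as higher or lower when its mean log2 CPM (prior count 2) differed by at least 1, that is 2-fold, and its values did not overlap between the 4 high and 4 low libraries. By this rule 123 genes were higher (1.01%) and 20 lower (0.165%), 143 in all (1.18%). The libraries were ranked by measured RNA, so these counts describe the data and no test was made. The median difference of the higher genes was 1.39, that of the lower genes -1.13 and that of all genes -0.01. Without the size limit, 662 genes (5.45%) were higher and 403 (3.32%) lower with no overlap. Just inside the limit were Slc41a1 at 1.002 and Lsamp at -1.003, and just outside were Shox2 at -0.999 and Vav2 at 0.99. Of the 123 higher genes, 102 differed by at least 2-fold within the floxed libraries, 112 within BATI4KO and 91 within each. Of the 20 lower genes, 10, 19 and 9 did. The rule that chose these genes fixes their direction within each genotype. It also means that at least 1 genotype reaches 2-fold, so these counts are no test of agreement between genotypes.

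**Figure D3:**
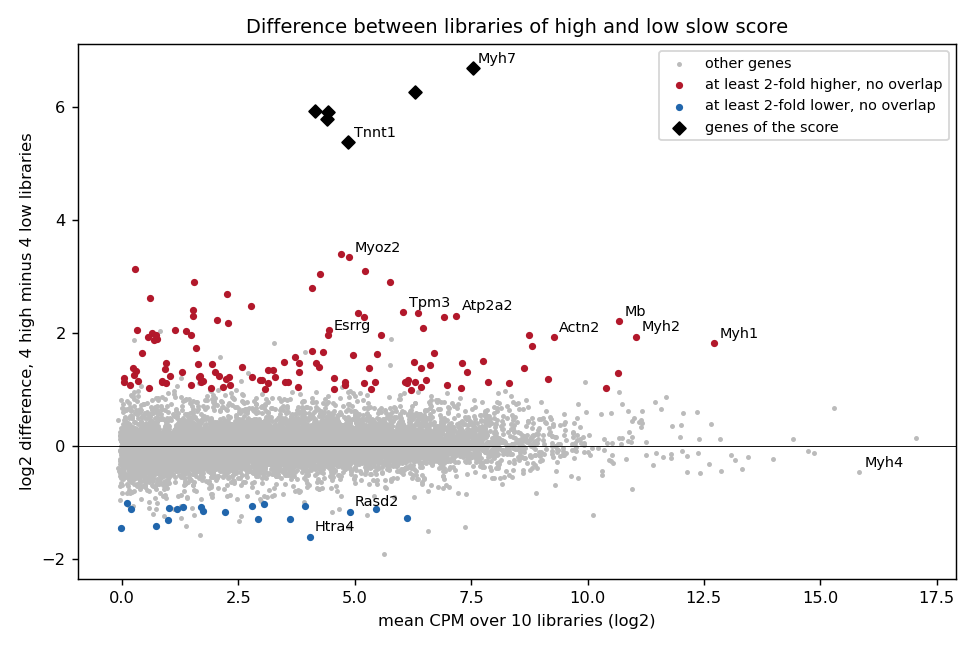
Log2 difference between the 4 high and 4 low libraries for each gene (points) against its mean CPM over 10 libraries (log2); red and blue points are at least 2-fold apart without overlap, black diamonds are the 6 score genes. The 123 higher genes outnumber the 20 lower ones, and all lie under the score genes.

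Most of the listed sarcomere, calcium and metabolic genes known from slow fibres were higher in the high set. Of a list of 17 such genes outside the score, 16 were measured above the limit, 13 of these were higher by the rule (1.01% of all genes were), and the list's median was 2.29 against -0.01 for all genes. Myoz2, a Z-disc protein that binds calcineurin, was at 98.4, 76.4, 45.1 and 26.7 CPM in the high and 8.89, 4.42, 12.1 and 1.72 in the low set, 10.1-fold apart (log2 means 5.78 ± 0.84 and 2.44 ± 1.23, SD, n = 4 each). Myom3, an M-band protein, was at 76.4, 116, 64.9 and 40.03 against 8.05, 13.1, 13.7 and 2.95 CPM, 8.51-fold apart. Csrp3, a LIM protein of the Z-disc, was at 46.8, 52.3, 25.8 and 26.3 against 15.9, 3.84, 6.63 and 0.798 CPM, 8.29-fold apart, with FX_5415 the highest of its low set. In each of the 3 genes the lowest library was FX_5503, which also has the lowest score.

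Ankrd2, an ankyrin-repeat protein that responds to stretch, was at 149, 142, 95.3 and 55.6 CPM in the high set and 7.06 to 25.6 in the low set. Casq2, the calcium store protein of slow and heart muscle, was at 69.9, 70.0, 52.9 and 35.4 CPM against 6.78 to 13.5. The slow calcium pump Atp2a2 was at 404, 558, 152 and 67.6 CPM against 38.3 to 57.5, and the slow tropomyosin Tpm3 at 223, 229, 62.6 and 26.3 against 14.1 to 24.2. For these last 2 genes FX_5497 stood only just above the low set. The oxygen store myoglobin (Mb) was at 3160, 2799, 2309 and 2001 CPM against 304 to 860, and Fabp3, which carries fatty acids in muscle, at 401, 318, 364 and 328 against 94.1 to 144. For Mb and Fabp3 the 4 high libraries lay close together. The other members counted were Myh7b at 2.31, Ldhb (the heart form of lactate dehydrogenase) at 2.28, Actn2 (the Z-disc actinin of all fibres) at 1.93 and Mybpc1 (slow myosin-binding protein) at 1.29 on the log2 scale. Not counted were Car3 (0.51), Myl6b (0.37) and Pln, the inhibitor of the Atp2a2 pump, at -0.29.

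Slow and fast partners can be set side by side per length. Tnni1 made up 1.22% of Tnni1 and Tnni2 together in KO_5492, 0.0388% in FX_5497 and 0.0020% in FX_5503. Actn2 made up 5.21% to 16.9% of the actinins Actn2 and Actn3 in the high set and 1.16% to 3.32% in the low set. Ldhb made up 8.17% to 15.4% of Ldhb and Ldha in the high set and 0.934% to 4.78% in the low set. The shares of Tnni1 spanned a far wider range than those of Actn2 or Ldhb.

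The genes of lipid and energy metabolism had positive differences, most of them under 2-fold. Of all genes, 48.3% had a positive difference, 5.45% were higher without overlap and 1.01% were also past 2-fold, which is the background for the counts of these lists. All 24 genes measured of fatty acid uptake and oxidation had positive differences (median 0.74), 21 did not overlap between the sets, and 4 also passed 2-fold. Lpl, the lipase that releases fatty acids from circulating triglyceride, was at 755, 893, 786 and 548 CPM against 258, 211, 245 and 160.4, a log2 difference of 1.77. Cd36, a fatty acid transporter, was at 543, 454, 438 and 392 against 284, 148, 216 and 208 CPM (1.12). The oxidation enzymes Acaa2 (1.08) and Acadl (1.03) completed the 4. Their sets stood apart without overlap, while Pdk4, a brake on pyruvate oxidation, and the uncoupling protein Ucp3 overlapped, at 0.76 and 0.21.

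All 21 genes of the tricarboxylic acid cycle were positive (median 0.46), 16 without overlap, and Idh2 alone passed 2-fold, at 285, 301, 192 and 198 CPM against 105, 84.3, 92.3 and 68.3 (1.47). All 76 measured nuclear genes of oxidative phosphorylation were positive (median 0.50, range 0.11 to 0.88), 40 without overlap, and none reached 2-fold. Atp5b, the catalytic subunit of ATP synthase, was at 2499, 2610, 2449 and 2321 CPM against 1733, 1845, 1887 and 1833. Atp5a1 was at 2187, 2464, 2384 and 2104 against 1497, 1743, 1617 and 1581 CPM. The summed CPM of the oxidative phosphorylation genes was 17298 to 19646 in the high set and 12062 to 14219 in the low set. The small subunit Cox7a1 had the largest difference of the list, 0.88, and its sets overlapped because FX_5503, at 43.4 CPM, exceeded KO_5492 and KO_5495 at 28.6 and 28.9. FX_5503 is among the 3 libraries with high Rmrp and Rpph1, and the part of this in the Cox7a1 values was not tested.

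**Figure D4:**
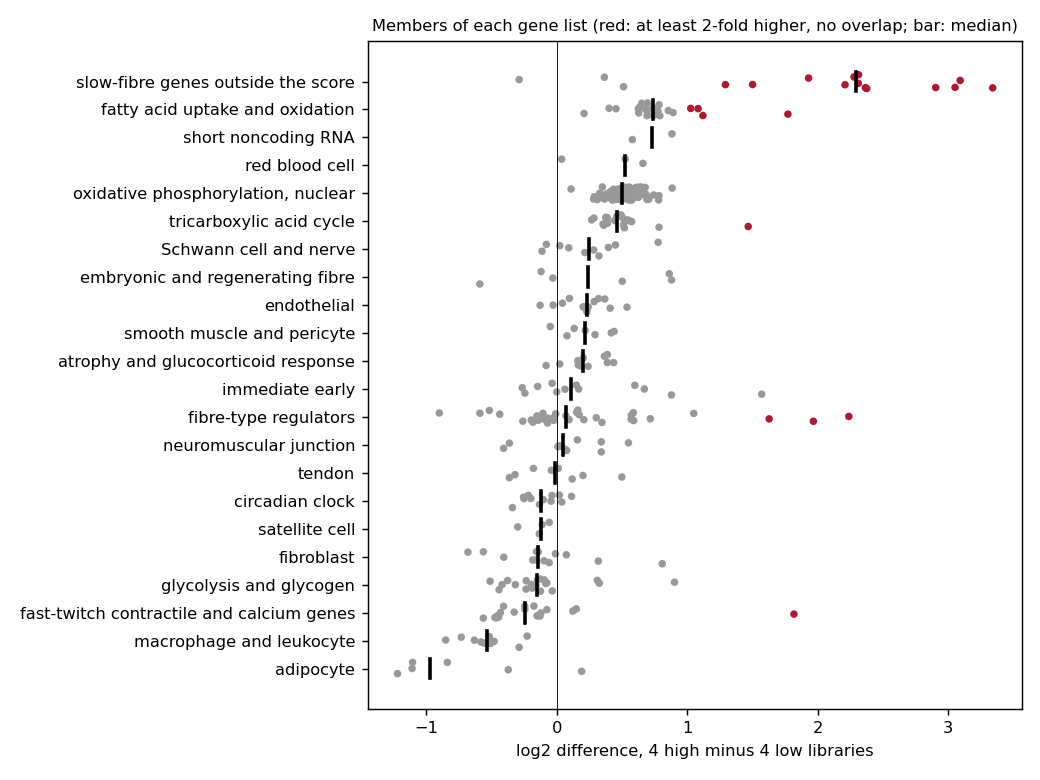
Log2 difference between high and low libraries for each member (points) of 22 gene lists, with the list median as a black bar; red points are at least 2-fold higher without overlap. The slow-fibre list has a median of 2.29, while the 3 oxidative lists lie between 0.46 and 0.74.

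Of 33 regulators linked to fibre type, 3 were higher by the rule (1.01% of all genes were), all nuclear receptors of fuel use. Without the size limit, 5 were higher and 2 lower with no overlap (5.45% and 3.32% of all genes were). Esrrb, an estrogen-related receptor, was at 6.87, 9.98, 5.30 and 3.60 CPM against 1.64, 1.54, 2.02 and 0.429 (2.24). Esrrg, its relative in oxidative muscle, was at 34.6, 46.7, 31.8 and 19.8 against 9.49, 12.2, 10.2 and 3.62 CPM (1.97). Ppara, the receptor that governs fatty acid oxidation genes, was at 40.9, 93.0, 85.1 and 62.4 against 26.7, 18.4, 25.7 and 17.5 CPM (1.63). All 3 kept the sets apart, whereas the coactivator Ppargc1a, at 47.5 to 81.3 against 35.2 to 47.9 CPM, overlapped (0.57). The list's median was 0.07. Sox6, a repressor of slow genes, was at 232 to 317 CPM in the high and 210 to 387 in the low set. Mstn, which limits muscle growth, had sets that did not overlap, at 43.5, 40.3, 54.0 and 90.0 against 92.0, 95.9, 100.6 and 116 CPM, and its log2 difference of -0.90 was short of 2-fold. The motif AAGGTCA, the element of estrogen-related receptors, was found in 7 of 131 windows of the higher genes (5.34%), which belong to 6 genes. It was in 4.72% of all windows and 3.19% of the windows of the genes tested. Of the 123 genes, 87 had a window in the table. A MEF2 motif was in 2 of the 131 windows (1.53%), in 0.557% of all windows and in 0.527% of those of the genes tested. Both shares of the higher genes thus rest on few windows.

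Among the 10 named genes with the largest positive differences, 4 are the slow-list members Myoz2, Myom3, Csrp3 and Ankrd2. The largest was Bdh1, the mitochondrial enzyme that interconverts ketone bodies, at 71.2, 69.8, 48.5 and 23.8 CPM against 7.18, 5.28, 10.1 and 1.135, a difference of 3.40 or 10.5-fold. Bdh1 was as far apart within floxed (3.53) as within BATI4KO libraries (3.26). Dach2, a transcriptional regulator that responds to nerve activity, was at 15.8, 13.9, 10.7 and 5.33 against 3.49, 1.06, 3.52 and 0.859 CPM (2.49). Klhl34 was at 37.6, 43.1, 25.02 and 16.5 against 7.18, 3.80, 5.72 and 1.75 CPM (2.79). In these 3 genes the sets stood apart and FX_5503 was lowest.

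The remaining 3 were measured at low levels. Lgi1, a secreted protein best known from neurons, was at 3.67, 3.53, 2.04 and 0.824 CPM against 0.061 to 0.473, with 2 to 19 counts in each low library. Adamts8, a secreted metalloprotease, was at 7.53, 6.94, 5.17 and 2.01 against 0.276 to 0.891 CPM. Myh6, a myosin of the heart, was at 9.44, 17.0, 5.20 and 3.74 against 0.798 to 1.58 CPM, and 22.6% of its 50-base stretches also occur in Myh7. How far Myh7 reads enter the Myh6 counts was not tested. Further genes of the 123, chosen after their values were seen, were the lipid droplet protein Plin5 at 1.62, the triglyceride enzyme Dgat2 at 1.97, the lactate transporter Slc16a1 at 1.13, the mitochondrial creatine kinase Ckmt2 at 1.03 and the water channel Aqp4, known from fast glycolytic fibres, at 1.1.

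**Figure D5:**
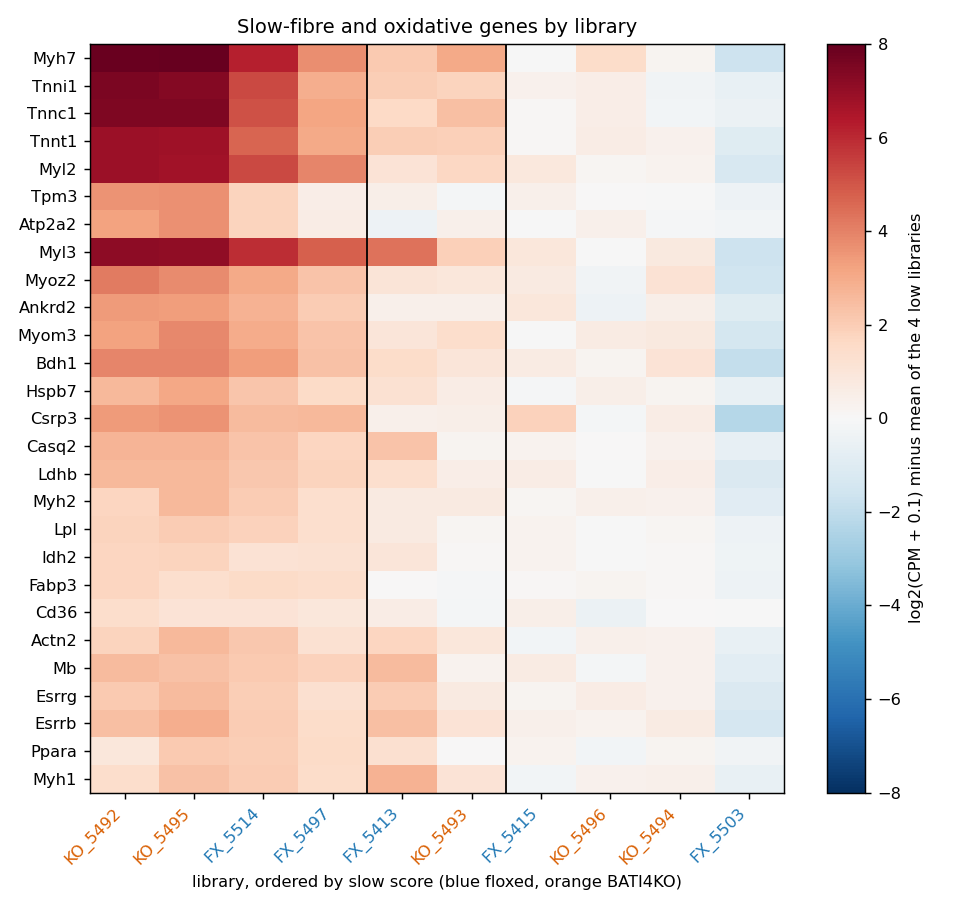
Log2(CPM + 0.1) of 27 slow-fibre and oxidative genes (rows) in each library (columns, by slow score), relative to the mean of the 4 low libraries; red is higher. The score genes and Tpm3 and Atp2a2 drop between KO_5495 and FX_5497, while Mb, Esrrg and Myh1 are within or above the range of the high libraries in FX_5413.

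The genes lower in the high set were few and mostly of low level. Htra4, a secreted serine protease, was at 5.17, 8.10, 6.90 and 15.0 CPM in the high set against 21.5, 21.8, 36.0 and 22.1 in the low set, a difference of -1.60. Rasd2, a small Ras-like GTPase, was at 14.7, 21.1, 10.1 and 23.1 against 29.7, 50.4, 28.6 and 41.8 CPM (-1.16). Pla2g7, a secreted phospholipase that inactivates platelet-activating factor, was at 23.4, 22.9, 21.1 and 44.8 against 51.8, 61.6, 60.7 and 57.9 CPM (-1.11). FX_5497 was the highest of the high set in all 3. The others named were the collagen IV chain Col4a6 (-1.44), the transcription factor Twist1 (-1.41), the bicarbonate transporter Slc4a10 (-1.30), the spindle protein Fam83d (-1.17), the neurexin-family protein Cntnap2 (-1.15) and the Wnt antagonist Sfrp1 (-1.11). These last 6 genes had set means of at most 6.59 CPM.

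Most fast contractile and glycolytic genes differed by less than 2-fold between the sets. Of 18 fast contractile and calcium genes, 15 had negative differences (median -0.24), and Myh1 alone was counted, as higher. Over all genes, 48.3% had a positive difference and 1.01% were counted as higher. The actinin Actn3 was at 4701 to 8114 CPM in the high and 5932 to 10804 in the low set (-0.44), and the calcium buffer Pvalb at 2869 to 5555 against 3741 to 7288 (-0.46). Of 20 genes of glycolysis and glycogen use, 17 were negative (median -0.15), and none passed 2-fold. The aldolase Aldoa, at 8659 to 11346 against 9195 to 13491 CPM, and the glycogen phosphorylase Pygm, at 3939 to 6625 against 4989 to 8028 CPM, overlapped between the sets. The fast list had a median of -0.04 within floxed and -0.45 within BATI4KO libraries, and the glycolysis list 0.03 and -0.29, a change of sign, and this difference between genotypes was not tested.

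Over all 10 libraries, the genes whose log2 CPM ran most like the slow score were Rcan2, a regulator of calcineurin (Pearson r 0.97), and Tpm3, Hspb7, Zdhhc23 and Frem2 (each 0.96). Hspb7, a small heat shock protein of muscle, was at 163, 236, 128 and 78.8 CPM in the high set, 65.2 and 40.6 in the middle and 25.6, 37.8, 32.6 and 17.8 in the low set. Rcan2 was at 124, 115, 89.2 and 64.5, then 70.1 and 57.5, then 42.7, 48.6, 50.1 and 35.7 CPM. In both the low set lay below the other 6 libraries, although FX_5413 exceeded FX_5497 for Rcan2. The opposite course was closest in Prps1l3, a relative of a nucleotide-synthesis enzyme, and Phkg1, a catalytic subunit of phosphorylase kinase (each -0.95), and in Cacng1, a subunit of the muscle calcium channel, Gamt, which makes creatine, and Ddost, of protein glycosylation (each -0.94). Phkg1 was at 301, 294, 349 and 403 CPM in the high set and 404, 438, 466 and 482 in the low set. These r values describe 10 libraries that differ in other ways too, and were picked as the largest of many.

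The higher genes did not share a single course along the score. In Tpm3 the 2 highest libraries exceeded the next 2 by 2.47 on the log2 scale and in Atp2a2 by 2.23, as in the score genes, where it was 1.78 (Myl3) to 3.38 (Tnni1). In Mb the same step was 0.47, in Myh1 0.16 and in Fabp3 0.05. Over the 123 genes the median step was 0.45, it passed 1 in 14 and was negative in 13. The next 2 libraries, in turn, exceeded the low set by a median of 1.20. The rule requires FX_5514 and FX_5497 to lie above the low set in all 123 genes, so that direction follows from the choice. In these 2 libraries slow troponins were between the levels of the 2 top libraries and of the low set. The top 2 libraries are BATI4KO and the next 2 floxed, and only the next 2 have high Rmrp and Rpph1. This step thus cannot be told apart from genotype or from that difference between libraries.

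The middle libraries also went separate ways. FX_5413 had a slow score of 2.41 but Myh1 at 16635 CPM, the highest of all libraries, and Mb at 3139, near the top of the high set. Its summed CPM was the highest of all libraries for oxidative phosphorylation (21127) and for the tricarboxylic acid cycle (11062). For fatty acid uptake and oxidation FX_5413 was at 5187, between the high set (6126 to 6986) and the low set (3327 to 3833). Of the 123 higher genes, it exceeded the highest low library in 96 and the lowest high library in 57, and its median position was 0.65 on a scale from the low mean (0) to the high mean (1). KO_5493, with a score of 2.28, exceeded the highest low library in 48 and the lowest high library in 9, with a median position of 0.23. Nearly equal slow scores thus went with oxidative genes at different levels. Of the 20 lower genes, FX_5413 was below the lowest low library in 16 and KO_5493 in 5.

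Markers of other cells gave no gene past the rule. Of the lists for nerve, satellite cells, endothelium, smooth muscle, fibroblasts, tendon, adipocytes, leukocytes, red blood cells, the neuromuscular junction, regenerating fibres, early response, clock and atrophy genes, no member was at least 2-fold apart without overlap. Over all genes, 1.18% were so apart, 48.3% had a positive difference and 3.32% were lower without overlap. Of the leukocyte markers, 10 of 10 had negative differences (median -0.54, 2 lower without overlap). Their summed CPM was 61.2 to 85.9 in the high and 80.4 to 151 in the low set. In the middle libraries it was below both sets, at 35.8 in FX_5413 and 49.3 in KO_5493, so it did not follow the score throughout. The macrophage gene Cd163 was at 13.3, 15.3, 16.9 and 17.4 against 25.9, 18.5, 18.1 and 28.1 CPM. Adipocyte markers had a median of -0.97, -2.26 within floxed and 0.46 within BATI4KO libraries, with a summed CPM of 46.8 to 94.9 against 40.1 to 150. FX_5415 led these markers, with Cfd (adipsin) at 42.7 CPM against 1.33 to 19.04 elsewhere, and it was also highest for the tendon gene Fmod at 67.6 CPM. Endothelial markers were positive in 12 of 14 (median 0.23), with a summed CPM of 444 to 520 against 288 to 458. No listed marker in the table was at 0 in all libraries. The part of these cells in the differences was not tested.

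Genotype was tested from the labels, which did not choose the libraries. None of the 6 score genes passed in edgeR's quasi-likelihood test over 14529 genes: their log2 differences, BATI4KO minus floxed, were 1.38 (Myl3) to 2.93 (Tnnc1), with standard errors of 1.32 to 1.62 and Benjamini-Hochberg adjusted p of 0.583 to 0.805. In that fit 1 gene passed (0.00688%), and 1295 had an unadjusted p under 0.05 (8.91%). It was Elmod2, a GTPase-activating protein, at 32.1 to 47.9 CPM in BATI4KO and 13.8 to 21.9 in floxed libraries, with a log2 difference of 1.15 (SE 0.14, edgeR adjusted p 0.0449). It did not pass when FX_5415, FX_5497, FX_5514, KO_5492, KO_5493, KO_5494 or KO_5496 was left out (edgeR adjusted p up to 0.213). DESeq2 called 97 genes with the same design. The BATI4KO and floxed libraries did not overlap for Elmod2, while its high and low sets did.

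With the slow score as a covariate, which compares genotypes at equal score, 4 genes passed edgeR (0.0275%), and 1621 had an unadjusted p under 0.05 (11.2%). Elmod2 had a log2 difference of 1.22 (SE 0.11, edgeR adjusted p 0.00254). Rasal2, a Ras GTPase-activating protein, was at 14.9 to 21.6 CPM in BATI4KO and 22.3 to 32.4 in floxed libraries, a difference of -0.73 (SE 0.09, edgeR adjusted p 0.0268). Lrch1, at 2.82 to 5.10 against 4.88 to 6.97 CPM, differed by -0.86 (SE 0.12, edgeR adjusted p 0.0476), and Adh1, an alcohol dehydrogenase, at 6.48 to 12.5 against 15.8 to 30.6 CPM, by -1.46 (SE 0.20, edgeR adjusted p 0.0476). The 3 genes did not pass without the score, with edgeR adjusted p of 0.253, 0.353 and 0.0802. With the score, all 3 lost their calls when FX_5497, FX_5514, KO_5492, KO_5493, KO_5494 or KO_5496 was left out, Rasal2 and Lrch1 also without FX_5503 and Lrch1 without KO_5495, with edgeR adjusted p up to 0.244. The number of genes passing was 57 without FX_5413, 28 without FX_5415, 9 without KO_5495 and 1 to 3 without any other library, and DESeq2 called 237.

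None of the 123 higher genes passed in either genotype fit, where 0.00688% and 0.0275% of all genes did. Each set holds 2 libraries of each genotype, so the choice of these genes forces a spread within each genotype. Without the score, their median standard error was 0.42 against 0.17 over all genes. The lack of calls among them is thus no result. These genes were chosen on libraries ranked by the score, so a smaller spread at equal score follows from the choice and is no result. Their genotype differences had a median of 0.14 without and -0.25 with the score. Bdh1 went from 0.82 (SE 0.87) to -0.07 (SE 0.34) and Mb from -0.14 (SE 0.64) to -0.89 (SE 0.39), with edgeR adjusted p of 0.819, 0.961, 0.969 and 0.430 in that order. Neither gene passed. The score is built from genes of the same libraries, so the second fit is a description of what remains at equal slow RNA.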

How the data were processed

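Per the labels' protocols, ribosomal RNA was removed from whole white vastus RNA, and libraries were tagmented from randomly primed cDNA. The authors deposited raw counts of reads per gene model, with a symbol and a length, per the file headers. Build mm9 and the tools featureCounts (1.4.6), TopHat2 (2.0.14) and edgeR are named in the submitters' processing notes, beside others for read files. Strand handling is not given in the sources used here, so reads of genes that overlap on opposite strands cannot be told apart. In the GENCODE annotation of GRCm38 such overlaps touch Myh7, Myl2, Myl3, Myh1, Myh2, Bdh1 and Myh6, among others. The table for brown adipose tissue was not used.

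Of 28541 models, the one with most counts stood for each of 27691 symbols. Counts were scaled by TMM in edgeR 4.0.16 (R 4.3.3) and expressed as CPM, or as log2 CPM with a prior count of 2. Depth was 30479508 to 40328627 counts per library. No 2 libraries of a genotype agreed within sampling noise (smallest chi-square per gene 32.9). Genotype was tested with edgeR's quasi-likelihood F test (Benjamini-Hochberg, threshold 0.05) over all 10 libraries, without and with the slow score. The standard error of a change was taken from its size and F. The steps were tested on simulated data.

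The 6 score genes, the 22 lists and the rules were chosen with earlier results of these data known. Named were the score genes, Myh4, Myh1, Myh2 and Irf4, the 10 largest differences per direction without unnamed models, up to 3 counted members of a list (or the 2 most abundant), the 5 genes per direction most correlated with the score, and the genes passing in the genotype fits. Of the genes this rule names, 1 is not reported here. Other list members were picked with their values in view. The alternatives changed the scaling, filter, fold limit, set size and score, or left a library out. Alternatives chosen after seeing the data were each genotype alone, the libraries with low Rmrp and Rpph1, and totals without Ttn, Myh4 and DQ539915.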

Additional observations from a re-analysis of the deposited data

Results flagged for a closer look

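Among 172 sets of 5 libraries of a genotype checked for a library far from the others, 4 values stood out, and chance flags about 1 in 20 such sets. The macrophage receptor Mrc1 was at 3.18 log2 CPM in FX_5413, against 4.62 to 5.08 in the other floxed libraries. In KO_5495, the endothelial phosphatase Ptprb was at 7.20 (6.67 to 6.78 in the other BATI4KO libraries), the endothelial receptor Flt1 at 6.24 (5.38 to 5.52) and the immediate early gene Jun at 6.63 (5.998 to 6.17).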

How the results depend on the processing

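The 143 genes counted as higher or lower became 237 with no filter on low counts, 84 at a mean of at least 5 CPM, 376 at 1.5-fold, 240 with 3 against 3 libraries, 94 with 5 against 5, and 130 to 197 with each of the 8 libraries of the sets left out in turn. With settings chosen after seeing the data it was 237 without the 3 libraries of high Rmrp and Rpph1, 221 in floxed and 278 in BATI4KO libraries alone, where fewer libraries make overlap rarer. Library totals gave 125, and leaving any gene out of the score left the same sets and 143. Of 2295 recomputed differences of named genes, 27 moved by more than the spread. None was reversed among the score genes and the genes counted as higher or lower. A change of sign in the other named genes was not counted as a reversal. Myh4, for example, went from -0.46 to 0.02 in the floxed libraries alone. Alternatives that changed only the filter, the fold limit or the score kept the sets and scaling, so no difference could move in them. Their differences are among the 2295 and say nothing of stability. The difference of the score by genotype was 0.27 to 1.84 with a library left out, with an exact permutation p of 0.317 to 0.873. The genotype fit called 5 genes with no filter on low counts, 97 by DESeq2 and 0 to 11 with a library left out (11 without KO_5495, 10 without FX_5413). With the slow score it called 19, 237 and 1 to 57. Elmod2 passed in 13 of 13 alternatives with the score and in 6 of 13 without. Adh1, Rasal2 and Lrch1 passed in 7, 6 and 5 of 13 with it. The cause of these changes was not tested. No paired analysis was possible because the libraries of the genotypes share no numbers. Genes near 1 CPM rest on few counts.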
